A study of Bos taurus with 6 samples.

Results

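IGF2, DLK1, PEG3, MEST, PLAGL1, GRB10, NNAT, PEG10 and SGCE are imprinted growth genes, and all 9 were found by symbol among the 47249 genes of the table of gene levels. They were taken whatever their level, in all 6 libraries. The libraries are labelled as testis of untreated cattle (Bos taurus), from 3 immature calves aged 3 months and 3 andrologically mature bulls aged 3 years, with 1 library per animal. Total RNA without ribosomal RNA was sequenced, and the level of a gene is given in FPKM (the number of sequenced fragments for each kilobase of its transcript, relative to the size of the library), so levels of different genes can be set side by side per length. An FPKM value holds fragments of linear and of circular RNA together. The table gives no counts, so the number of fragments behind a single value and its counting error are not known, and the spread between animals is the only error given.

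An imprinted gene is transcribed mainly from the copy inherited from one parent. All of these genes are known in mammals as expressed mainly from the paternal copy in many tissues, except GRB10, whose active copy depends on tissue. Several of them are abundant in the fetus and young animal and decline as growth slows, and in the testis the gonadal somatic cells are known sources of IGF2 and DLK1. FPKM values do not separate the parental copies, so nothing here bears on which copy was read.

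The positions in the table are those of an ARS-UCD genome assembly, although the methods name UMD3.1.1: the positions of 16298 symbols found once in the table and once in the RefSeq table of ARS-UCD2.0 overlapped the locus of the same symbol in 99.7%, and those of the members in 9 of 9. The summed FPKM of all genes lay between 732130 and 1098720 in 5 libraries and was 587066 in the library labelled calf 3. The brain and Leydig cell markers of that library went against its label, and the Sertoli cell markers were mixed. All 14 brain cell markers found were highest in it, with a summed FPKM of 15560 against 71.1 to 161 in the other libraries. Of 10 Leydig cell markers, 4 were at 0 in it (CYP11A1, CYP17A1, HSD17B3 and NR5A1), and the list summed to 5.03 against 1165 to 2721 elsewhere. Of 10 Sertoli cell markers found, FSHR, WT1 and GATA4 were at 0. In calf 1, calf 2 and all bulls these Leydig and Sertoli markers were present. Calf 3 was kept in its labelled group, and the members, the gene lists and the genes called below are given with and without it.

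Bulls were compared with calves on the scale log2(FPKM + 1) with limma, over the 18115 genes that reached 1 FPKM in 3 or more of the 6 libraries. Fold changes below are bull minus calf on that scale, which draws those of weakly expressed genes toward 0. A call needed an adjusted p below 0.05 (Benjamini-Hochberg over all genes tested) and a change of 1 or more, up or down, on the log2 scale. The median log2 fold change of all genes tested was 0.43, and it was -0.26 after quantile normalization, so where 0 lies depends on the scaling.

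PEG3 and PLAGL1 were lower in bulls with all libraries, and IGF2, GRB10, PEG10 and SGCE joined them when calf 3 was left out. Of the 9 genes, 8 passed the filter, and DLK1 did not, since only calf 1 and calf 2 held at least 1 FPKM of it. With all libraries, 2 of the 8 were called lower and 0 higher, against 9.61% and 35.7% of all genes tested. Without calf 3, 6 of the 8 were called lower and 0 higher, against 13.6% and 37.9% of all genes. After quantile normalization of all libraries 7 of the 8 were called lower, all except IGF2, against 25.1% of all genes, and 0 higher, against 21.1%. All calves lay above all bulls in 5 of the 8 genes, as in 21.3% of the genes tested, and in DLK1 as well. All 9 genes were higher in both calf 1 and calf 2 than in any bull. The share of all genes with that order was not computed, so this describes the members only. In a bulk sample, fewer cells of a type and less RNA per cell cannot be told apart, and this holds for every difference below.

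**Figure D1:**
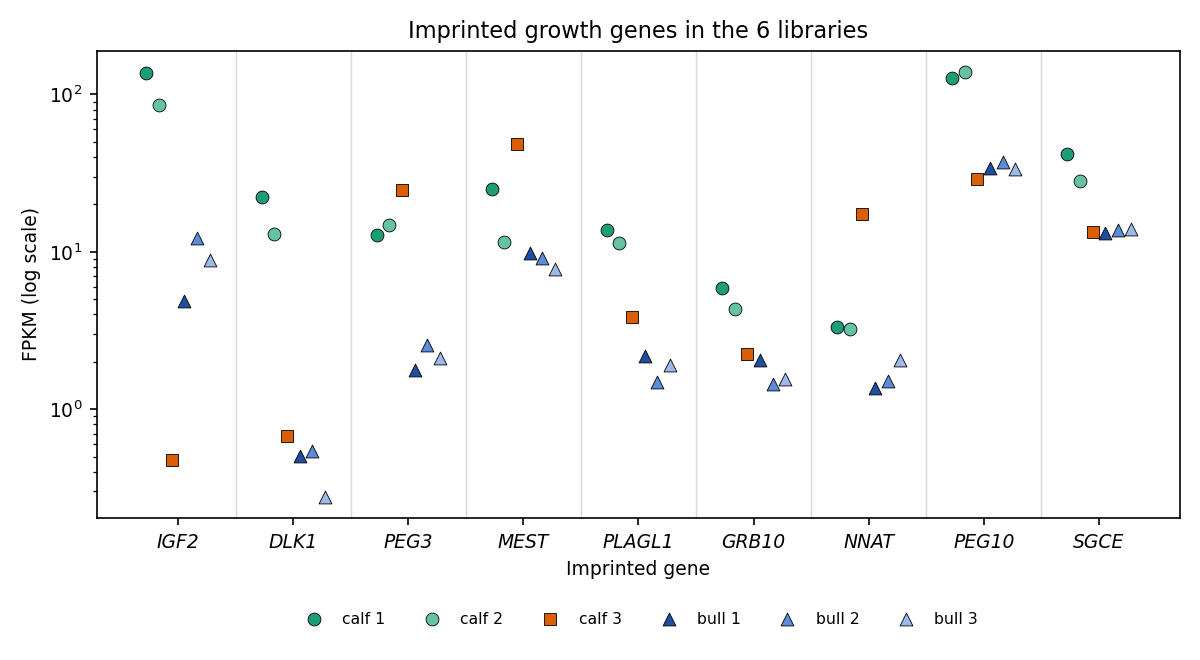
FPKM of the 9 imprinted growth genes (vertical axis, logarithmic scale) in each of the 6 libraries, where a point is 1 animal, circles are calf 1 and calf 2, squares the library labelled calf 3 and triangles the bulls. Calf 1 and calf 2 lie above all bulls in every gene shown, an order whose share among all genes was not computed. Calf 3 is highest in PEG3, MEST and NNAT and lies at 0.476 FPKM in IGF2, under all bulls.

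IGF2 (ENSBTAG00000013066, chromosome 29, 49394907 to 49422468) encodes a growth factor that acts through the IGF1 and insulin receptors. Its FPKM was 136, 85.6 and 0.476 in the calves and 4.90, 12.3 and 8.82 in the bulls, here and below in the order of the animals' numbers. Calf 1 and calf 2 were far above every bull and calf 3 was under every bull, so the groups overlapped. With all libraries it was not called, at -1.51 on the log2 scale (standard error 1.73, adjusted p = 0.491, limma) and a 95% interval from -5.75 to 2.74. Without calf 3 it was -3.57 (standard error 0.37, adjusted p = 0.000237), and the gene was called. The mean of calf 1 and calf 2 was 12.8 times the mean of the bulls and 233 times the value of calf 3. Bull 2 had 2.50 times the FPKM of bull 1, the widest spread among bulls of the 9 genes.

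DLK1 (ENSBTAG00000037899, chromosome 21, 65626343 to 65634828) encodes a transmembrane protein related to the Notch ligands that is known to hold back fat cell differentiation. Its FPKM was 22.2, 13.0 and 0.681 in the calves and 0.507, 0.540 and 0.278 in the bulls. All calves were above all bulls, but calf 3 was only 1.54 times the mean of the bulls, whereas calf 1 and calf 2 averaged 39.9 times that mean, the largest ratio of the 9 genes. DLK1 was not tested with the filter in place. Over all 44657 genes above 0 in any library, the fitted change was -2.51 on the log2 scale (standard error 0.97, adjusted p = 0.101, limma), and without calf 3 it was -3.65 (standard error 0.26, adjusted p = 0.000811). In the fit without calf 3 and without the filter, 6.1% of all genes were called lower, and 7 of the 9 members were. Most of those 44657 genes were under the filter, where the scale draws changes toward 0. With the filter, the share was 13.6% of 18115 genes.

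PEG3 (ENSBTAG00000054572, chromosome 18, 64099930 to 64118980) encodes a zinc finger protein. It had an FPKM of 12.8, 14.9 and 24.7 in the calves and 1.77, 2.57 and 2.11 in the bulls, a mean of 17.5 ± 6.34 (SD, n = 3) against 2.15 ± 0.398 (SD, n = 3). Every calf was far above every bull, and calf 3 was the highest. PEG3 fell by 2.51 on the log2 scale (standard error 0.28, adjusted p = 0.000539, limma), and by 2.24 (standard error 0.17, adjusted p = 6.18e-05) without calf 3. It was the only member called under all 17 other settings of the fit.

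PLAGL1 (ENSBTAG00000026523, chromosome 9, 81353402 to 81407582) encodes a zinc finger transcription factor that slows the cell cycle. Its FPKM was 13.8, 11.3 and 3.85 in the calves and 2.19, 1.50 and 1.92 in the bulls. The groups did not overlap, with calf 3 between the other calves and the bulls. It fell by 1.75 on the log2 scale (standard error 0.44, adjusted p = 0.0166, limma), and by 2.24 (standard error 0.17, adjusted p = 7.35e-05) without calf 3. The call with all libraries was close to the threshold: without calf 2 or without any one of the bulls, the adjusted p lay between 0.0504 and 0.0649.

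GRB10 (ENSBTAG00000017086, chromosome 4, 5105492 to 5327013) encodes an adaptor protein that binds the insulin and IGF1 receptors and dampens their signal. Its FPKM was 5.86, 4.34 and 2.24 in the calves and 2.06, 1.45 and 1.55 in the bulls. All calves were above all bulls, although calf 3 exceeded bull 1 by little. At -0.88 on the log2 scale (standard error 0.31, adjusted p = 0.0513, limma) it was not called. Without calf 3 it was -1.18 (standard error 0.18, adjusted p = 0.00145), which was one.

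MEST (ENSBTAG00000017223, chromosome 4, 94250156 to 94263796) encodes a protein of the hydrolase fold that is abundant in growing mesodermal tissue. Its FPKM was 24.9, 11.5 and 48.3 in the calves and 9.89, 9.19 and 7.74 in the bulls. Calf 3 was the highest, calf 2 was just above the bulls, and calf 1 had 2.16 times the value of calf 2. MEST was not called with all libraries (log2 fold change -1.35, standard error 0.49, adjusted p = 0.0589, limma) nor without calf 3 (-0.86, standard error 0.31, adjusted p = 0.0413), where it missed the fold change. Without calf 2 it passed (-1.85, adjusted p = 0.00752).

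NNAT (ENSBTAG00000003212, chromosome 13, 66465154 to 66467543) encodes a small membrane protein of the endoplasmic reticulum, known from developing brain and endocrine cells. Its FPKM was 3.34, 3.21 and 17.4 in the calves and 1.36, 1.52 and 2.04 in the bulls. Calf 1 and calf 2 were nearly equal, and calf 3 was 5.33 times their mean. With all libraries it was not called, at -1.41 on the log2 scale (standard error 0.60, adjusted p = 0.0931, limma). Without calf 3 it was -0.70 (standard error 0.16, adjusted p = 0.00807), under the fold change of a call.

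PEG10 (ENSBTAG00000053735, chromosome 4, 12063872 to 12076658) derives from a retrotransposon and encodes proteins needed in the placenta. Its neighbour SGCE (ENSBTAG00000021282, chromosome 4, 11992415 to 12063687) encodes a sarcoglycan of the cell membrane, and the spans of both genes lie 185 bases apart. PEG10 had an FPKM of 127, 139 and 29.2 in the calves and 34.2, 37.4 and 33.6 in the bulls. SGCE had an FPKM of 42.0, 28.1 and 13.4 in the calves and 13.1, 13.8 and 13.9 in the bulls. In both genes calf 1 and calf 2 were above all bulls and calf 3 was at the level of the bulls: under all of them in PEG10, and between bull 1 and bull 2 in SGCE. With all libraries neither was called, with log2 fold changes of -1.18 (standard error 0.60, adjusted p = 0.146, limma) for PEG10 and -0.84 (standard error 0.40, adjusted p = 0.120) for SGCE. Without calf 3 both were called, at -1.89 (standard error 0.10, adjusted p = 1.54e-05) for PEG10 and -1.28 (standard error 0.18, adjusted p = 0.000859) for SGCE. The bulls were closest to each other in SGCE, where the highest was 1.06 times the lowest, and in PEG10, where it was 1.11 times.

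**Figure D2:**
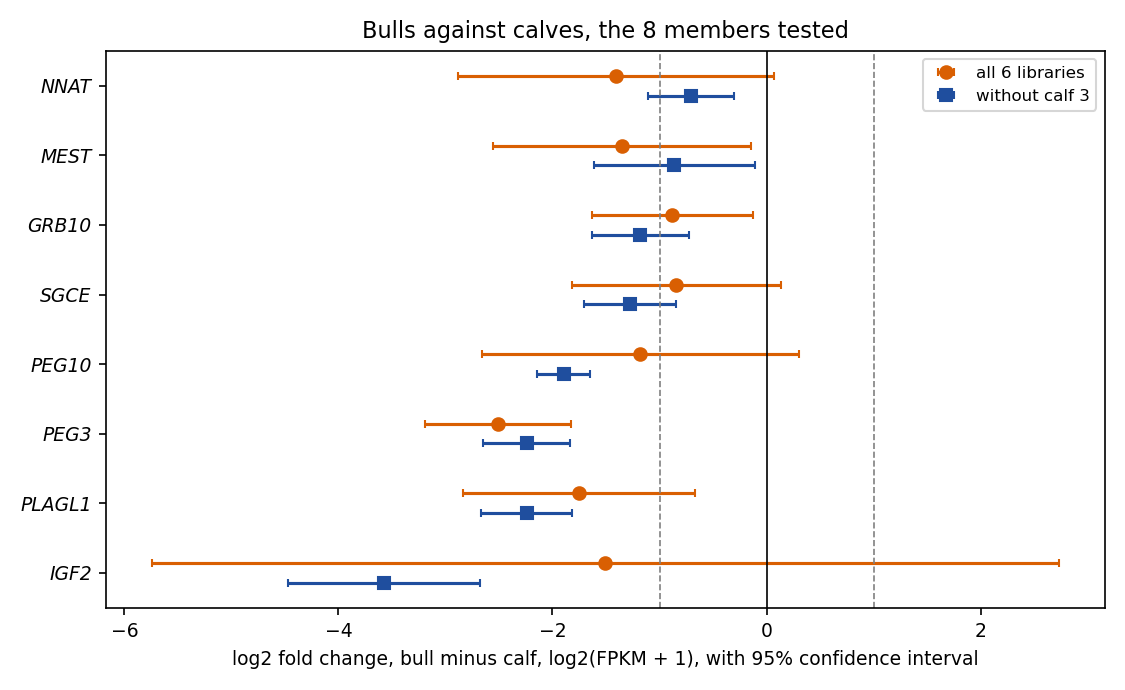
Log2 fold change (bull minus calf, on log2(FPKM + 1)) of the 8 imprinted growth genes tested, with 95% confidence intervals from limma, for all 6 libraries (circles) and without calf 3 (squares); dashed lines mark the fold change of a call. All estimates are under 0, and the interval of IGF2 runs from -5.75 to 2.74 with all libraries and from -4.47 to -2.67 without calf 3.

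Relative to the median of all genes, the log2 fold changes of the tested members lay between -2.94 (PEG3) and -1.27 (SGCE) with all libraries. They were under 0 in all 8 genes under each of the 17 other settings, which include quantile normalization and upper-quartile scaling. PEG10 was the most abundant member in calf 2 and each bull, and IGF2 in calf 1. Over calf 1 and calf 2 the order of the mean levels was PEG10, IGF2, SGCE, MEST, DLK1, PEG3, PLAGL1, GRB10 and NNAT. The values of PEG10 and IGF2 overlapped, and so did those of each neighbouring pair from MEST to PLAGL1. In bulls the order was PEG10, SGCE, MEST, IGF2, PEG3, PLAGL1, GRB10, NNAT and DLK1, with overlapping values for MEST and IGF2 and among PEG3, PLAGL1, GRB10 and NNAT. IGF2 and DLK1 thus stood lower among the members in bulls than in calf 1 and calf 2, by 2 and by 4 places. In calf 3 the order ran from MEST and PEG10 down to DLK1 and IGF2. Together the 9 genes came to 388, 311 and 140 FPKM in the calves and to 70.0, 80.2 and 71.9 FPKM in the bulls.

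The members fell into unlike patterns over the 6 libraries. Likeness was measured as the root mean square difference between profiles of log2(FPKM + 1), each centred on its own mean, over 6 libraries of which calf 3 is one. The closest pair of members was GRB10 and SGCE at 0.189, followed by PEG10 and SGCE at 0.388, PLAGL1 and PEG10 at 0.408, and MEST and NNAT at 0.417. The farthest pair was IGF2 and NNAT at 2.80. Among all genes tested that carry a symbol, the nearest profile to IGF2 was that of DCN, which encodes decorin of the extracellular matrix, at 0.376, and then that of CTSW at 0.470. For DLK1 the nearest were COL4A6, a basement membrane collagen, at 0.174 and ACP5 at 0.193. For PEG3 they were SCARB2 at 0.0818 and PPM1K at 0.151, and for PLAGL1 they were PLP2 at 0.106 and the Wnt receptor gene FZD1 at 0.120. The nearest to GRB10 were SAMSN1 at 0.0807 and ATP10D at 0.0902, and the nearest to SGCE were TENT5A at 0.0835 and EMILIN2 at 0.0861. PEG10 lay nearest to the ribosomal protein genes RPL13A at 0.0788 and RPL27 at 0.0905. PEG3, MEST and NNAT lay nearest to genes that, like them, were highest in calf 3, namely CHST1 at 0.119 and KIRREL3 at 0.130 for MEST, and the ciliary neurotrophic factor receptor gene CNTFR at 0.0747 and KSR1 at 0.0992 for NNAT. With calf 3 left out of the measure, most of these neighbours changed: IGF2 was then nearest to SOD3 at 0.184, MEST to P3H1 at 0.102, NNAT to RND3 at 0.0404 and PEG10 to ZKSCAN4 at 0.0250. ACP5 was the nearest to DLK1 at 0.0717, and SCARB2 was still among the nearest pair of PEG3 at 0.0657, behind COL6A2 at 0.0461. The closest members were still GRB10 and SGCE, at 0.156, and the farthest were then DLK1 and NNAT, at 1.47.

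In the table of transcripts the members had 28 entries, of which 2 (DLK1-203 and IGF2-203) were at 0 in all libraries and 12 passed the filter. With all libraries 3 were called lower and 0 higher, against 9.37% of the transcripts tested called lower and 34.8% called higher. They were PEG3-203 (log2 fold change -2.55, adjusted p = 0.00103, limma), PEG3-202 (-1.52, adjusted p = 0.000951) and PLAGL1-202 (-2.02, adjusted p = 0.00688). PEG3-202 and PLAGL1-202 reached 1 FPKM in calves only. They thus passed the filter through the group where they are high, and their calls are descriptions only. Without calf 3, 8 were called lower and 0 higher, against 13.1% and 36.1% of all transcripts. The log2 fold changes were then -2.25 for PEG3-203, -1.39 for PEG3-202 and -2.40 for PLAGL1-202, each with a call. Of the entries that the filter left out, TCONS_00283067 of PEG10 went the other way, with 0, 0.00198 and 0 FPKM in the calves and 1.72, 0.817 and 0.736 FPKM in the bulls. In a fit of all libraries without the filter it was called higher in bulls (1.03, adjusted p = 0.0244, limma), and with calf 3 left out as well it was not (1.03, adjusted p = 0.0520). How reads were shared among the transcripts of a gene is an estimate of the authors' software.

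The level of IGF2 rested almost wholly on TCONS_00252347, a transcript assembled from the reads. Its FPKM was 132, 82.8 and 0.0195 in the calves and 3.85, 11.1 and 7.78 in the bulls, which is 97.0%, 96.8% and 4.10% of the gene in the calves and 78.5% to 90.7% in the bulls. In calf 3, 95.9% of the little IGF2 present was assigned to IGF2-201, which held at most 0.00598% in the other libraries. In NNAT, too, calf 3 had most of its level in another transcript than calf 2 and the bulls, while in calf 1 NNAT-201 and NNAT-202 were nearly equal. NNAT-202 had an FPKM of 1.67, 1.14 and 16.4 in the calves and 0.401, 0 and 0.483 in the bulls, which is 94.2% of the gene in calf 3 and at most 35.5% in calf 2 and the bulls. NNAT-201 had 1.67, 2.07 and 1.01 in the calves and 0.959, 1.52 and 1.56 in the bulls, with overlapping groups and a log2 fold change of -0.13 (adjusted p = 0.657, limma; -0.30, adjusted p = 0.210 without calf 3), so the high NNAT of calf 3 lay in NNAT-202 alone.

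PLAGL1 was divided mainly between PLAGL1-201 and PLAGL1-202. Another entry, PLAGL1-OT1, held 22.2% of it in bull 3 and at most 4.99% elsewhere. PLAGL1-202 had an FPKM of 7.23, 4.77 and 2.12 in the calves and 0.677, 0.321 and 0 in the bulls, a share of 42.2% to 55.1% in calves and of 0% to 30.9% in bulls. PLAGL1-201 had 6.46, 6.38 and 1.68 in the calves and 1.40, 1.12 and 1.50 in the bulls, and was not called with all libraries but was without calf 3 (log2 fold change -1.67, adjusted p = 0.000478, limma), and also with all libraries after quantile normalization (-2.00, adjusted p = 0.00778). GRB10-202 had an FPKM of 2.35, 0.631 and 1.15 in the calves and 0.104, 0.158 and 0 in the bulls and did not pass the filter, and GRB10-201 was not called with all libraries (-0.53, adjusted p = 0.237) or without calf 3 (-0.87, adjusted p = 0.0108). With all libraries GRB10-201 was called lower after quantile normalization (-1.33, adjusted p = 0.00968, limma), but not after upper-quartile scaling (-0.92). The assembled entry TCONS_00274697 held 43.2% of GRB10 in bull 3 and 7.08% to 22.05% elsewhere. DLK1-202 held 76.7% and 89.2% of DLK1 in calf 1 and calf 2, and DLK1-201 held 65.0% in calf 3. In MEST, PEG10 and SGCE a single transcript carried the gene in every library, with at least 96.4% (MEST-202), 92.4% (PEG10-201) and 85.1% (SGCE-201) of its FPKM. PEG3-203 held 55.3% to 80.3% of PEG3.

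**Figure D3:**
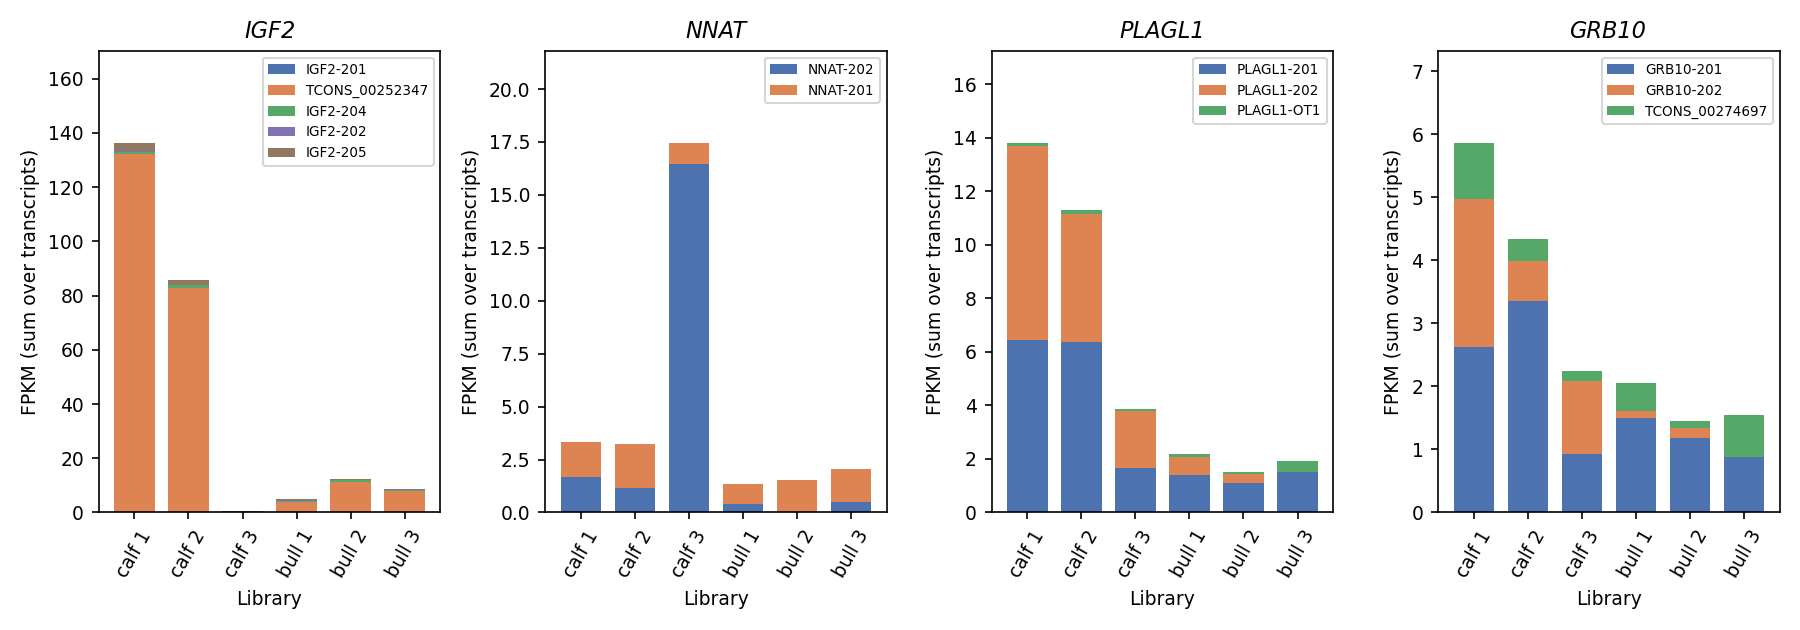
FPKM of the transcripts of IGF2, NNAT, PLAGL1 and GRB10 (vertical axis, linear, stacked so that a bar's height is the FPKM of the gene) in each of the 6 libraries (horizontal axis). One assembled transcript makes up nearly all of IGF2 in calf 1 and calf 2, NNAT-202 makes up 94.2% of NNAT in calf 3, and PLAGL1-202 takes 42.2% to 55.1% of PLAGL1 in calves and at most 30.9% in bulls.

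The entries around the members were then read within 250 kb on either side, keeping those that span at least 200 bases and reach an FPKM of 1 in a library. An entry could pass through 1 group alone, here and in the filter of the test. Counts of entries with the groups apart, and the calls of entries that passed so, are therefore descriptions only. The share of all genes under this rule was not computed. Of the genes tested under the stricter filter, 21.3% had all calves above all bulls. The entries named here for their position were chosen after their values were seen. Whether strand was used in counting is not given in the sources used here, so overlapping entries may share reads. Around IGF2, 12 entries were kept. The noncoding RNA H19, whose active copy is known to be the maternal one, lies between IGF2 and MRPL23 in the RefSeq table, and 3 overlapping entries of the table lie there. The most abundant, XLOC_167882 (chromosome 29, 49510742 to 49513379), reached an FPKM of 474, 271 and 0.0592 in the calves and 6.68, 8.97 and 13.4 in the bulls. As for IGF2, calf 1 and calf 2 were far above the bulls and calf 3 was under them. The entry was not called with all libraries (log2 fold change -2.32, adjusted p = 0.430, limma) and was called without calf 3 (-5.12, adjusted p = 3.53e-05). On the other side of IGF2, CD81 was lower in bulls (-1.89, adjusted p = 0.000127) and TSSC4 higher (2.18, adjusted p = 0.000263), each with a call also without calf 3 (TSSC4 at 2.04). TH, next to IGF2, had an FPKM of 1.46, 2.66 and 0.385 in the calves and 0.289 to 0.445 in the bulls, and INS was at 0 in 5 of the 6 libraries.

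Around DLK1, 10 entries were kept, of which 6 had all calves above all bulls, and these 6 lie on the side of MEG3, RTL1 and MEG8. All 6 passed through calves only, since the bulls were under 1 FPKM in each, so the calls among them are descriptions only. A pair of them overlaps where RefSeq places MEG3, a noncoding RNA known to come from the maternal copy. Their order over the calves was opposite: RF01872 had 0.805, 4.46 and 26.8 FPKM in the calves and at most 0.0547 in the bulls, while XLOC_124743 had 4.59, 0.989 and 0.0854 in the calves and at most 0.0434 in the bulls. Because they overlap, they may share reads, and their sum was 5.40, 5.45 and 26.9 FPKM in the calves and 0.0554, 0.0831 and 0.0981 FPKM in the bulls. Farther along, RF02146, at MEG8, had an FPKM of 10.5, 6.53 and 5.17 in the calves and 0.0550, 0.0726 and 0.420 in the bulls (log2 fold change -2.79, adjusted p = 0.000345, limma). XLOC_124746, which covers RTL1 and MEG8, had 3.77, 2.74 and 4.49 against 0.0359, 0.0697 and 0.0585 (-2.13, adjusted p = 0.000140). Both were also called without calf 3. The same stretch holds 33 short entries of the snoRNA family RF00181, each spanning 63 to 78 bases, and 30 of them had all calves above all bulls, with a summed FPKM of 24.4, 8.05 and 15.3 in the calves and 0.521, 0.940 and 1.10 in the bulls. FPKM values of entries this short are unsure. On the other side of DLK1, XLOC_124740 was higher in bulls (2.34, adjusted p = 0.000347), and also without calf 3 (2.29). It passed through bulls only, so its call is likewise a description only.

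Around PEG3, 14 entries were kept, of which 8 had all calves above all bulls and 4 all bulls above all calves. For the genes tested, under the stricter filter, the first share was 21.3%, and the second was not computed. MGC157368 had an FPKM of 3.31, 3.77 and 24.4 in the calves and 0.0874, 0.236 and 0.0523 in the bulls (log2 fold change -2.84, adjusted p = 0.0145, limma), highest in calf 3 as PEG3 was. ENSBTAG00000038326 had 6.32, 2.36 and 13.4 against 0.0936, 0.142 and 0.253 (-2.61, adjusted p = 0.00619). Both reached 1 FPKM in calves only, so their calls are descriptions only. The calls were also made without calf 3, at -2.01 and -2.10. ZIM2, a zinc finger gene beside PEG3, had 1.12, 1.83 and 0 in the calves and 3.37, 4.63 and 3.58 in the bulls and was called higher with all libraries (1.41, adjusted p = 0.0249) but not without calf 3 (0.98) or after quantile normalization (0.70). XLOC_091124, an assembled entry of 264350 bases that overlaps PEG3, was higher in bulls (1.36, adjusted p = 0.000828; 1.41 without calf 3, also called), but not by a call after quantile normalization (0.78).

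Of 5 entries kept around MEST, 0 had all calves above all bulls and 4 had all bulls above all calves. The share of all genes with all bulls above all calves was not computed, and 35.7% of the genes tested were called higher in bulls. The counts therefore do not set MEST apart from its surroundings. CEP41, a gene of the cilium and centrosome, TSGA13 and CPA5 were called higher in bulls by 3.70, 3.06 and 1.95 on the log2 scale, and by 3.60, 3.07 and 1.75 without calf 3. TSGA13 reached 1 FPKM in bulls only, so its call is a description only. COPG2, which begins 212 bases from MEST, had an FPKM of 15.2, 14.6 and 10.1 in the calves and 27.4, 25.7 and 23.9 in the bulls, under the fold change of a call (0.92, adjusted p = 0.00821, limma), as it was without calf 3 (0.74). NNAT lies within the span of BLCAP, which had 14.6, 16.3 and 24.5 in the calves and 22.6 to 27.3 in the bulls and was not called (0.42, adjusted p = 0.165; 0.63 without calf 3). Near SGCE and PEG10, the collagen gene COL1A2 had 153, 86.0 and 8.50 in the calves and 14.5 to 19.1 in the bulls, and was called lower in bulls without calf 3 (-2.76, adjusted p = 0.000157) but not with it. PLAGL1 overlaps ZC2HC1B, which was higher in bulls (2.24, adjusted p = 0.00138). Beside GRB10, COBL was higher (3.17, adjusted p = 0.000216) and IKZF1, a lymphoid transcription factor gene, lower in bulls (-1.85, adjusted p = 0.00126). These 3 calls were also made without calf 3, at 2.28, 3.42 and -2.05. IKZF1 reached 1 FPKM in calves only, so its call is a description only.

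**Figure D4:**
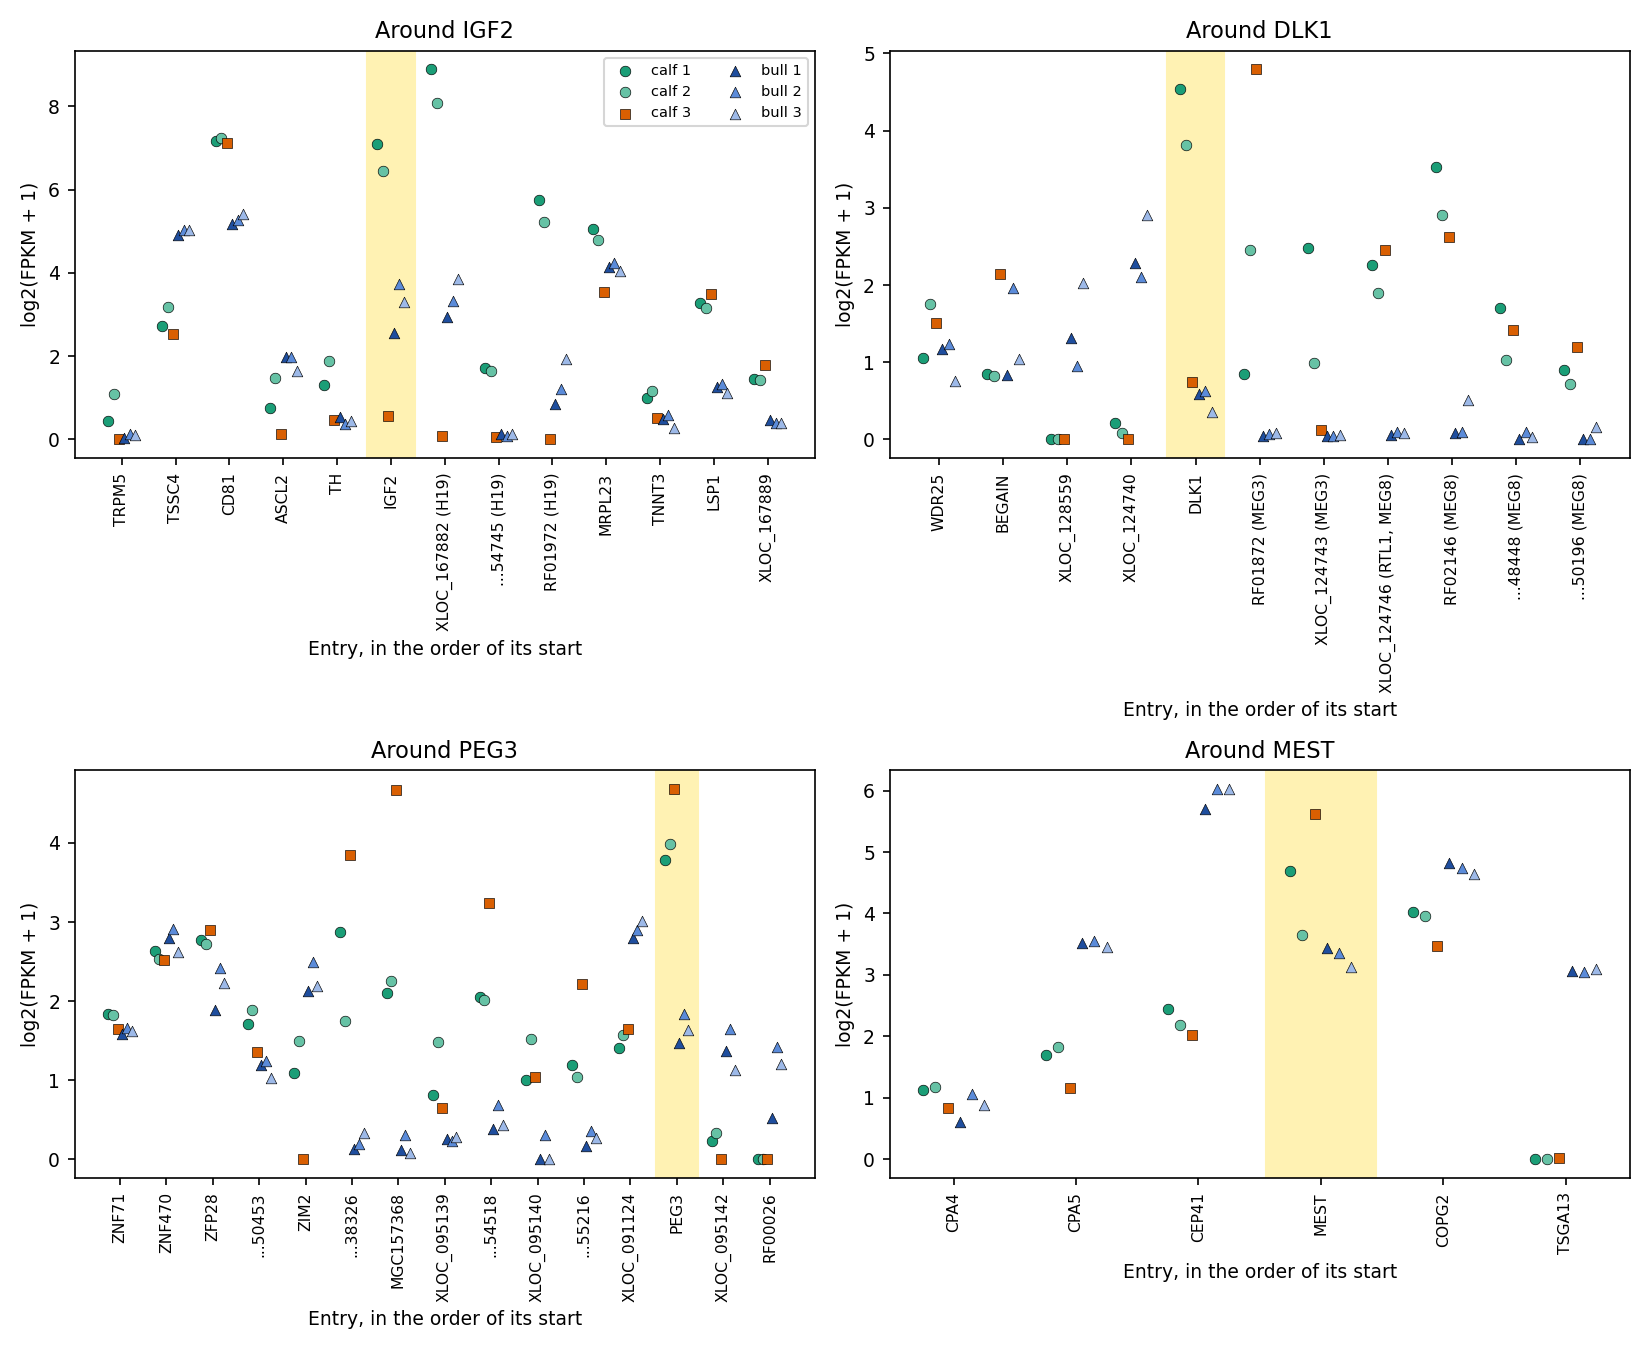
Log2(FPKM + 1) (vertical axis) of IGF2, DLK1, PEG3 and MEST (shaded) and of the entries within 250 kb of them, in the order of their start (horizontal axis, not to scale), in each of the 6 libraries, where a point is 1 animal. Around IGF2 the H19 entries share the high values of calf 1 and calf 2 and the low value of calf 3, the 6 entries of the MEG3 and MEG8 side of DLK1 have all calves above all bulls, and around MEST no entry but MEST itself does. An entry could pass through 1 group alone, and the share of all genes under that rule was not computed.

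In the list of genes known from the members' own imprinted clusters, 18 of 25 symbols were found and 10 were tested. COBL and ZIM2 were called higher in bulls and PON2, which encodes a lactonase, lower (log2 fold change -2.13, adjusted p = 0.00849, limma), and the median was 0.50 against 0.43 for all genes. The backgrounds for this list and the next 3 are 35.7% of all genes called higher and 9.61% lower, or 37.9% and 13.6% without calf 3. Without calf 3, COBL and PON2 (-1.66) were the calls. After quantile normalization the calls were 1 higher and 3 lower. CASD1, PPP1R9A, CPA4, DDC and TFPI2 were tested and not called. RTL1 had an FPKM of 0.281 to 0.793 in calves and 0.0280 to 0.0570 in bulls, under the filter, and DIO3, which encodes a deiodinase, had 0.123 to 0.599 and 0.0285 to 0.242. CPA1, KLF14, PON3 and ZIM3 were also under the filter.

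The split of the calls among other genes listed as imprinted depended on the scaling. TSSC4 and ASCL2 of this list lie within 250 kb of IGF2, and KCNQ1 lies on the same chromosome. Of 24 found of 28, 20 were tested, and 5 were called higher and 3 lower in bulls with all libraries and without calf 3 alike, with a median of -0.15 (0.21 without calf 3). After quantile normalization 3 were called higher and 7 lower, against 21.1% and 25.1% of all genes. The lower genes were GNAS, which encodes a G protein subunit (-2.66, adjusted p = 0.000571, limma), NDN, which encodes necdin (-1.96, adjusted p = 0.00162), and the potassium channel gene KCNQ1 (-1.41, adjusted p = 0.0238). The largest increases were those of the amino acid transporter gene SLC38A4 (2.79, adjusted p = 0.000819) and of TSSC4. SLC38A4 reached 1 FPKM in bulls only, so its call is a description only. The list also holds PLAGL2, a paralog of PLAGL1 that was higher in bulls and is not known here as imprinted. It is counted in this list and again among the paralogs. Without calf 3 the calls of GNAS (-2.36), NDN (-1.67), SLC38A4 (2.63) and TSSC4 were also made. KCNQ1 and ASCL2 lost their calls without calf 3, and GATM (higher) and IGF2R (lower) gained one.

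Among paralogs of the members, too, the split depended on the scaling. Of 21 symbols, 14 were found and 11 tested, with 4 called higher and 2 lower in bulls and a median of 0.25, and with 2 higher and 4 lower after quantile normalization. PLAGL2 had an FPKM of 2.19, 2.29 and 1.66 in the calves and 8.40, 9.12 and 9.84 in the bulls (log2 fold change 1.74, adjusted p = 0.000363, limma; 1.64 without calf 3, also called). DLK2, the paralog of DLK1, had 0.133, 0.204 and 0.670 against 4.49, 1.58 and 3.87 (1.64, adjusted p = 0.00662; 1.81 without calf 3, also called), with no call after quantile normalization (0.68). It reached 1 FPKM in bulls only, so its calls are descriptions only. SGCA, another sarcoglycan gene, was the largest increase (3.48, adjusted p = 0.00284; 3.71 without calf 3, also called). SGCB (-1.50, adjusted p = 0.0360) and RTL5, which like PEG10 derives from a retrotransposon (-1.12, adjusted p = 0.0169), were the lower calls with all libraries, and without calf 3 both were at -0.95, under the fold change. RTL5 had 10.6, 11.7 and 16.1 FPKM in the calves and 3.44, 6.63 and 6.30 FPKM in the bulls. IGF1, the other IGF gene, had 10.1, 11.2 and 2.48 in the calves and 10.4, 13.2 and 14.7 in the bulls, without a call (0.81, adjusted p = 0.224; 0.22 without calf 3). GRB14, related to GRB10, had 17.5, 20.5 and 3.37 against 3.30, 4.85 and 4.31. It was not called with all libraries, but was lower without calf 3 (-1.96, adjusted p = 0.000131) and with all libraries after quantile normalization (-1.90, adjusted p = 0.0450).

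The signalling list held receptors and signal proteins on which IGF2 and GRB10 act, and also IGF2BP1, IGF2BP2 and IGF2BP3, which encode proteins that bind IGF2 mRNA. All 22 genes were found, and 21 were tested. With all libraries 2 were called higher and 4 lower in bulls, with a median of -0.51, and without calf 3, 2 higher and 9 lower, with a median of -0.64. The share called higher was under the background of 35.7% and the share called lower above that of 9.61%, which was not tested. IGF1R, the receptor through which IGF2 signals growth, had an FPKM of 17.1, 19.5 and 17.6 in the calves and 44.0, 57.3 and 39.5 in the bulls (log2 fold change 1.32, adjusted p = 0.00141, limma; 1.30 without calf 3). INSR, the insulin receptor gene, had 15.5, 11.3 and 11.6 against 3.66, 3.69 and 2.55 (-1.68, adjusted p = 0.000901; -1.74 without calf 3). In both receptor genes the groups were well apart and calf 3 lay with the other calves. IGF2R, which clears IGF2 and is itself known as imprinted in cattle, had 26.9, 22.4 and 8.79 in the calves and 7.74, 8.64 and 7.23 in the bulls, and was not called with all libraries (-1.07, adjusted p = 0.0678). It was called lower without calf 3 (-1.53, adjusted p = 0.000131) and, with all libraries, after quantile normalization (-1.67, adjusted p = 0.0221) and upper-quartile scaling (-1.65, adjusted p = 0.0184).

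Downstream of the receptors, the docking protein genes IRS1 (log2 fold change -1.73, adjusted p = 0.00690, limma) and IRS2 (-1.27, adjusted p = 0.00348) and the regulatory PI3 kinase subunit gene PIK3R1 (-1.76, adjusted p = 0.00124) were lower in bulls, and MTOR was higher (1.30, adjusted p = 0.00713). Without calf 3 the 4 calls were also made, at -2.12, -1.09, -1.52 and 1.58. IRS4 was not tested, with an FPKM of 7.83, 10.8 and 0.244 in the calves and 0.0464 to 0.160 in the bulls. The calls of IGF1R and MTOR depended on the scaling: after quantile normalization their log2 fold changes were 0.57 and 0.69, 0 genes of the list were called higher and 10 lower. The lower calls of INSR, IRS1, IRS2 and PIK3R1 kept that direction and call under both scalings.

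**Figure D5:**
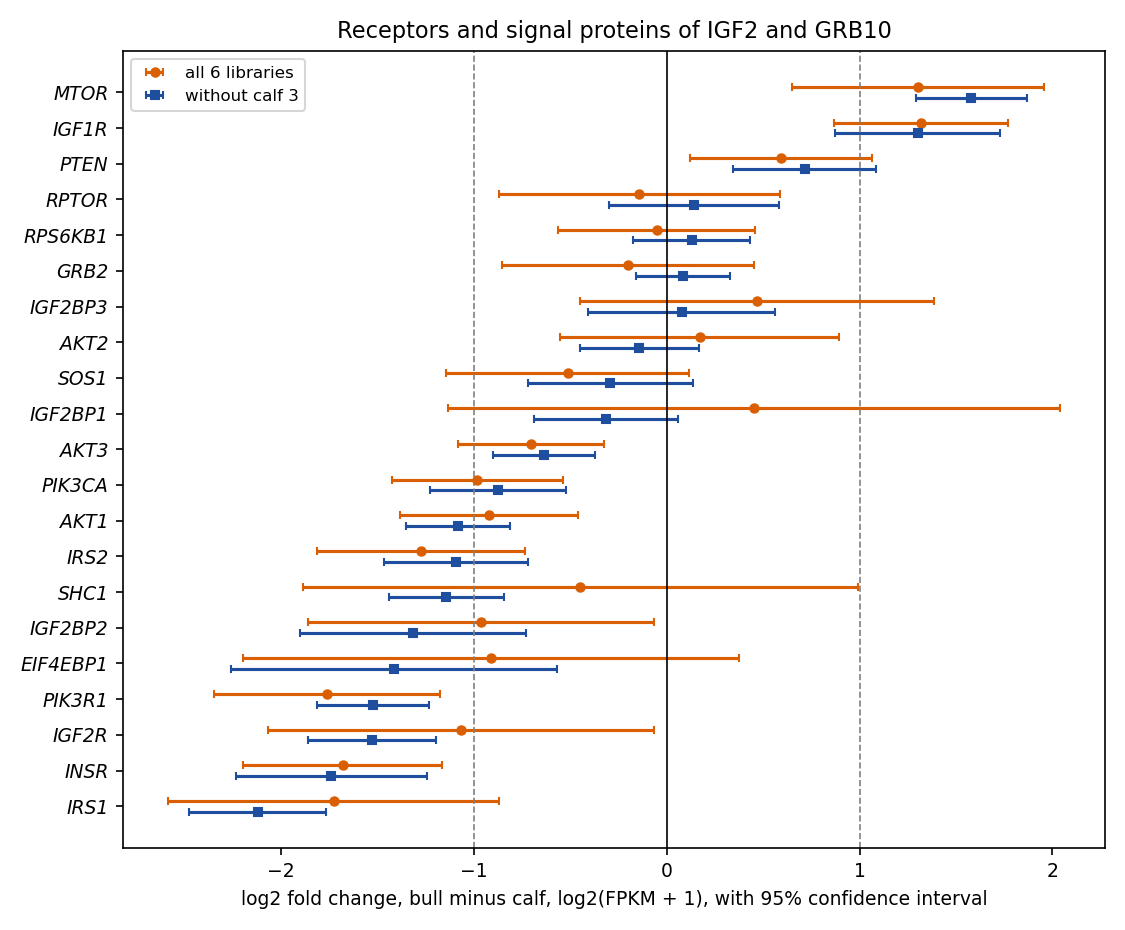
Log2 fold change (bull minus calf, on log2(FPKM + 1)) of the 21 tested genes of the signalling list, with 95% confidence intervals from limma, for all 6 libraries (circles) and without calf 3 (squares). The list holds receptors and signal proteins on which IGF2 and GRB10 act, and IGF2BP1, IGF2BP2 and IGF2BP3. Dashed lines mark the fold change of a call. MTOR and IGF1R are above 1 in both fits, whereas IRS1, INSR, PIK3R1 and IRS2 are under -1 in both.

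Lists of cell type markers were read beside all genes tested, of which 35.7% were called higher and 9.61% lower in bulls. Without calf 3 these shares were 37.9% and 13.6%. Only the spermatid and spermatocyte lists had a share called higher above these, and no list was tested as a set. The Sertoli cell list summed to 2823, 2715 and 872 FPKM in the calves and 449 to 478 in the bulls, and without calf 3, 8 of its 10 genes were called lower and 2 higher in bulls (with all libraries 1 and 1). The spermatid list summed to 2.90 to 4.19 in the calves and 14140 to 15910 in the bulls, with 12 of 12 genes called higher, and the spermatocyte list to 11.9 to 33.0 and 254 to 287, with 9 of 10 called higher (12 and 8 without calf 3). The Leydig cell list summed to 1442 and 1165 in calf 1 and calf 2 and to 1499 to 2721 in the bulls, with 1 gene called higher and 0 lower (1 and 1 without calf 3). Peritubular myoid cell markers summed to 26.7 to 68.0 in calves and 77.4 to 88.9 in bulls (2 of 6 called higher, and without calf 3, 2 higher and 1 lower), and endothelial markers to 18.2 to 50.1 and 16.9 to 20.8 (1 of 6 called lower, and 0 without calf 3). Spermatogonial markers summed to 126 to 284 in calves and 289 to 300 in bulls, with 2 of 8 called higher and 1 lower (2 and 2 without calf 3). Of the 10 brain cell markers tested, 3 were called higher and 2 lower in bulls without calf 3 (0 and 0 with it). The part of these markers in the lower levels of IGF2, DLK1, PEG3, PLAGL1, GRB10, PEG10 and SGCE in bulls was not tested, nor was the part of the brain cell markers of calf 3 in its levels of MEST, NNAT and PEG3. PEG3 and PLAGL1 were called lower in bulls with and without calf 3, and their means over calf 1 and calf 2 were 6.44 and 6.72 times those of the bulls.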

How the data were processed

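Each library is total RNA of 1 animal, sequenced after removal of ribosomal RNA. According to their methods, the authors mapped reads with TopHat2 and assembled transcripts with StringTie. They deposited FPKM values for genes and transcripts; the tool that made the FPKM values of genes is not given in the sources used here. The members and gene lists were chosen with earlier results of these data known.

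limma 3.58.1 was run in R 4.3.3 on log2(FPKM + 1), pseudocount 1, in a model of 2 groups with an empirical Bayes trend, two-sided, over features that reached 1 FPKM in 3 or more of 6 libraries. The procedure was tested on simulated data with normal errors and standard deviations capped at their median. The simulation held no library apart from its group, so it does not cover a library such as calf 3. Named genes were the 9 members, the 2 nearest profiles of each, genes of their clusters, the 2 largest called changes per direction in the other lists, genes of known role, and markers. Of gene symbols with several entries, the most abundant entry was used. Alternatives were a pseudocount of 0.1, no filter, quantile and upper-quartile scaling, array weights, no trend, a replicate block and leaving out each library. Sequences of the members and their promoters were not analysed here.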

Additional observations from a re-analysis of the deposited data

How the results depend on the processing

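With all libraries 2 members were called, and none was called higher in bulls under the 17 settings run. The number was 7 after quantile normalization and 7 after upper-quartile scaling, 6 with array weights, and from 1 to 6 when a library was left out: 1 without any one of the bulls, where PLAGL1 lost its call, and 6 without calf 3. Without calf 2, PLAGL1 lost its call and MEST gained one. The causes were not tested. Alternatives chosen after seeing the data left out calf 3 and changed a second choice: the members called were then 7 without the filter, 8 with quantile normalization, 8 with upper-quartile scaling and 6 with a pseudocount of 0.1. For the 6 called signalling genes the numbers in the same order were 10, 10 and 11, then 6 to 11 with a library left out, then 12, 11, 11 and 11. For the 3 called member transcripts they were 10, 7 and 9, then 3 to 8 with a library left out, then 11, 12, 11 and 9. Without the filter, 4 member transcripts were called, of which 1 was higher. The totals for the cluster neighbours, other imprinted genes, paralogs and all genes stayed within 1.5 times, but their splits moved with the scaling. All genes went from 6474 higher and 1741 lower to 3827 and 4538 after quantile normalization and to 5073 and 3701 after upper-quartile scaling. In the same order, cluster neighbours went from 2 and 1 to 1 and 3 and to 1 and 2, other imprinted genes from 5 and 3 to 3 and 7 and to 3 and 4, paralogs from 4 and 2 to 2 and 4 and to 3 and 3, and signalling genes from 2 and 4 to 0 and 10 and to 0 and 10.

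The log2 fold change of IGF2 ranged from -4.20 to -0.30 over the 17 settings and was called in 6, none of them with calf 3 at full weight. Calves and bulls numbered alike are different animals, and the correlations of their deviations were 0.0277, 0.0246 and 0.0341; each library was nearest to the one of its own number. With the replicate block 2 members were called. Without counts, the counting error of levels near 0, such as DLK1 in bulls, is not known. Leaving out 1 library changed whether IGF2, GRB10, PEG10, SGCE, PLAGL1 and MEST were called.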
